A study of Mus musculus with 4 samples.

Results

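The granzymes are the serine proteases that killer lymphocytes store in their granules. The 5 human genes of the family, GZMA, GZMB, GZMH, GZMK and GZMM, were taken by symbol from the deposited count tables, and all 5 of them, among 59490 genes analysed, were found once in each of the 4 libraries. When a killer cell meets its target it releases the granule content at the contact site, perforin opens the target cell membrane, and the granzymes enter and cleave proteins there. Granzyme A is a tryptase and granzyme B cuts after aspartate, as caspases do, so that it can start apoptosis. Granzyme K is a tryptase like granzyme A, granzyme H is a close relative of granzyme B with chymase activity, and granzyme M cuts after methionine or leucine. In human blood GZMB and GZMH are best known from late effector CD8+ T cells and NK cells, and GZMK from less differentiated memory CD8+ T cells.

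The libraries came from blood CD8+ T cells with high CD11a, a mark of antigen-experienced cells, sorted from patients treated with an antibody against the inhibitory receptor PD-1. Each of the 4 groups held 1 library: responder after therapy, responder before therapy, non-responder after therapy and non-responder before therapy. The labels give 1 cycle as 4 doses, with 3 weeks between doses. They speak of 2 patient cohorts, and do not say which patients the libraries share or whether patients were pooled, so time and patient cannot be told apart. Both libraries from before therapy have a PD-1-positive tag in their sample names, which the libraries from after therapy lack. Whether PD-1 was used as a gate is not stated, so time and gate cannot be told apart either. One label states that all blood was drawn after a cycle, which contradicts the group label of both samples taken before therapy. Groups here follow the group label. The organism field names mouse, but the genes in the files are human.

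Library totals lay between 65500644 and 129773591 counts, and the granzymes had between 4279 and 122379 counts each. Levels are given as CPM after TMM normalisation, which scales each library so that most genes match between libraries. Intervals are 95% intervals for counting error only, and as each group was 1 library there is no replicate spread to set them against. The chains of CD3 and CD8 were present at 150.01 CPM or more in each library. The 12 monocyte and neutrophil markers summed to 1904 CPM in responder cells and 9083 CPM in non-responder cells after therapy, and to 119 CPM in responder cells and 188 CPM in non-responder cells before therapy. Both libraries from after therapy thus held myeloid transcripts, the non-responder library the most.

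GZMA (ENSG00000145649) and GZMK (ENSG00000113088) lie 68077 bases apart on chromosome 5 of hg38, GZMK from 55024253 to 55034570 and GZMA from 55102648 to 55110252. GZMH (ENSG00000100450) and GZMB (ENSG00000100453) are direct neighbours on chromosome 14, from 24606480 to 24609699 and from 24630954 to 24634267, with a gap of 21254 bases and no other gene of the files fully between them. GZMM (ENSG00000197540) lies alone on chromosome 19, from 544034 to 549924. The pseudogene GZMAP1 stands 6094 bases before GZMA and had 203, 161, 81 and 27 counts in the responder after, the responder before, the non-responder after and the non-responder before therapy, against at least 35383 for GZMA in any library. How the authors counted reads that match both GZMA and GZMAP1, or both GZMB and GZMH, is not given in the sources used here.

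The granzymes were among the most abundant transcripts. Together they took up 0.321% of all counts in the responder after therapy, 0.413% in the responder before therapy, 0.147% in the non-responder after therapy and 0.292% in the non-responder before therapy. The non-responder library after therapy therefore had the smallest granzyme fraction of the 4. Divided by the length that the files give each gene, GZMH ranked 33 of 59490 genes in the responder after, 24 in the responder before, 79 in the non-responder after and 29 in the non-responder before therapy. GZMM, the least abundant granzyme, ranked 434, 721, 1053 and 821 in the same libraries.

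The order of the granzymes differed between the times in both responder and non-responder libraries. In levels per kilobase, the responder after therapy had GZMA at 1003, GZMH at 989, GZMB at 614, GZMK at 300 (299.7) and GZMM at 99.7 CPM per kilobase. The responder before therapy had GZMH at 1546, GZMB at 921, GZMA at 909, GZMK at 170 (170.2) and GZMM at 72.2 CPM per kilobase. GZMH thus led clearly before therapy and stood level with GZMA after it. The non-responder after therapy likewise had GZMA at 459, GZMH at 449, GZMB at 224, GZMK at 201 and GZMM at 49.4 CPM per kilobase. The non-responder before therapy had GZMH at 1383, GZMB at 620 (620.3), GZMA at 607, GZMK at 83.8 and GZMM at 69.4 CPM per kilobase. The GZMA to GZMH ratio per length was 1.01 in responder cells and 1.02 in non-responder cells after therapy, against 0.588 and 0.439 before it. With 1 library a group, no replicate spread tells neighbours in these orders apart.

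**Figure D1:**
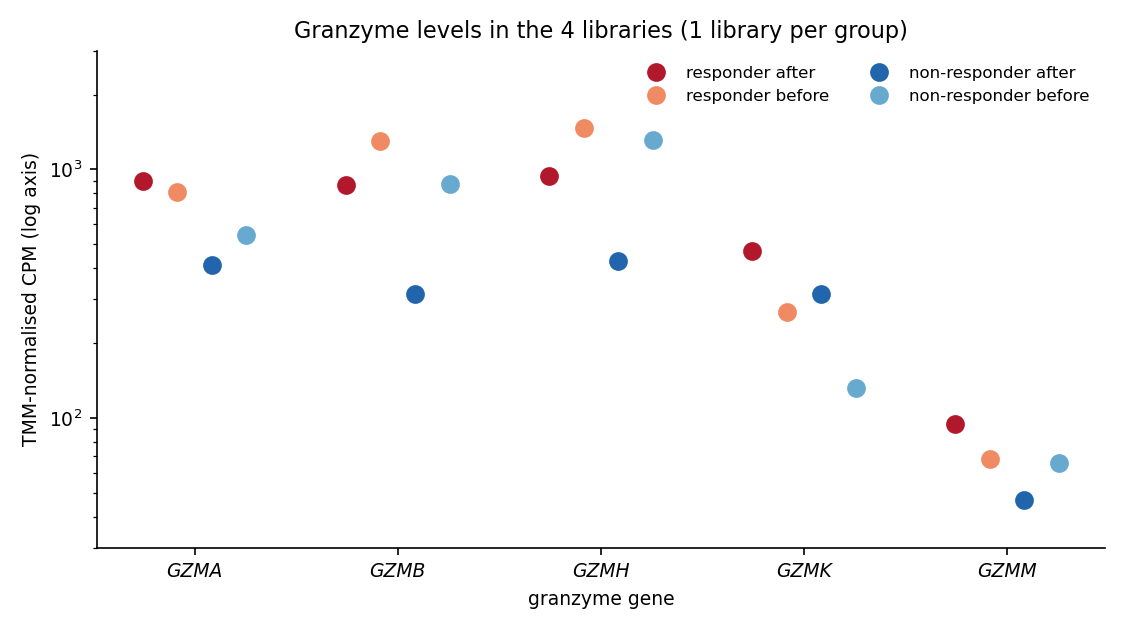
Level of each granzyme gene in TMM-normalised CPM on a log axis, 1 point per library, with no replicates. GZMB and GZMH were lowest in the non-responder after therapy (316 and 427 CPM), while GZMK was lowest in the non-responder before therapy (132 CPM).

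GZMB, the main apoptosis-inducing granzyme, had 866 CPM in responder cells and 316 CPM in non-responder cells after therapy, and 1299 CPM in responder cells and 875 CPM in non-responder cells before therapy. The responder library was higher at both times, and the library from before therapy was higher for both kinds of patient. The responder level was 2.74-fold that of the non-responder after therapy (log2 ratio 1.45, interval 1.43 to 1.47) and 1.48-fold before therapy (log2 ratio 0.57, interval 0.56 to 0.58). After against before therapy, GZMB was at 0.666-fold in the responder (log2 ratio -0.59) and at 0.362-fold in the non-responder (log2 ratio -1.47).

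GZMH, its neighbour on chromosome 14, had 941 CPM in responder cells and 427 CPM in non-responder cells after therapy, and 1470 CPM in responder cells and 1316 CPM in non-responder cells before therapy. Before therapy the levels in responder and non-responder were close. The responder to non-responder ratio was 2.20-fold after therapy (log2 ratio 1.14, interval 1.12 to 1.16) and 1.12-fold before therapy (log2 ratio 0.16, interval 0.15 to 0.17). After therapy GZMH was at 0.640-fold of its level before therapy in the responder (log2 ratio -0.64) and at 0.324-fold in the non-responder (log2 ratio -1.62), the lowest ratio of any granzyme in any pair.

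GZMA, the tryptase of the same granules, had 897 CPM in responder cells and 410 CPM (410.5) in non-responder cells after therapy, and 813 CPM in responder cells and 543 CPM in non-responder cells before therapy. Both responder levels were above both non-responder levels. The responder level was 2.19-fold that of the non-responder after therapy (log2 ratio 1.13, interval 1.11 to 1.14) and 1.499-fold before therapy (log2 ratio 0.58, interval 0.57 to 0.60). Between the times GZMA differed little, at 1.10-fold after against before therapy in the responder and 0.757-fold in the non-responder.

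GZMK, the tryptase of memory cells, had 471 CPM in responder cells and 316 CPM in non-responder cells after therapy, and 267 CPM in responder cells and 132 CPM in non-responder cells before therapy. GZMK was higher after therapy for both kinds of patient, by larger ratios than any other granzyme, 1.76-fold in the responder (log2 ratio 0.82, interval 0.79 to 0.84) and 2.40-fold in the non-responder (log2 ratio 1.26, interval 1.23 to 1.30). The responder level was 1.49-fold that of the non-responder after therapy (log2 ratio 0.58, interval 0.56 to 0.60) and 2.03-fold before therapy (log2 ratio 1.02, interval 0.99 to 1.06). GZMK was thus the granzyme whose ratio of responder to non-responder was smaller after than before therapy, and the other 4 had a larger ratio after therapy.

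GZMM had 94.2 CPM in responder cells and 46.7 CPM in non-responder cells after therapy, and 68.3 CPM in responder cells and 65.6 CPM in non-responder cells before therapy. The level in the responder after therapy stood above the other 3 libraries. The responder to non-responder ratio was 2.02-fold after therapy (log2 ratio 1.01, interval 0.97 to 1.06) and 1.04-fold before therapy (log2 ratio 0.06), where the interval, from -0.00023 to 0.11, included 0. After against before therapy GZMM was at 1.38-fold in the responder and 0.712-fold in the non-responder.

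Counted over the family, 4 of 5 granzymes stood 2-fold or more higher in the responder than in the non-responder after therapy, GZMK being the exception. That pair had 12434 genes that reached 5 CPM in a library, and 5.79% of them were as much higher. Before therapy 1 of 5, GZMK, stood 2-fold or more higher in the responder, where 11.5% of 12361 genes were. All 5 had a ratio above 1 in both pairs. The median log2 ratio of the 5 was 1.13 after therapy, beside 0.07 over all genes counted, and 0.57 before therapy, beside 0.06. Among all genes counted, 1.96% had a ratio at least as high as GZMB after therapy and 24.1% had one at least as high before therapy. Fewer cells of a type and less RNA per cell cannot be told apart in these bulk libraries.

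For time, 0 of 5 granzymes were 2-fold apart in the responder, where 13.2% of 12265 genes were at least 2-fold apart in either direction. In the non-responder 2 of 5, GZMB and GZMH, were at least 2-fold lower after therapy, where 8.25% of 12641 genes were, and 1 of 5, GZMK, was at least 2-fold higher, where 15.6% of these genes were. The 4 pairs share libraries, so their ratios are not independent of each other. The summed family stood at 3268 CPM in responder cells and 1516 CPM in non-responder cells after therapy, and at 3917 CPM in responder cells and 2931 CPM in non-responder cells before therapy. The responder sum was 2.16-fold that of the non-responder after therapy (log2 ratio 1.11, interval 1.10 to 1.12) and 1.34-fold before therapy (log2 ratio 0.42, interval 0.41 to 0.43). After against before therapy the sum was at 0.834-fold in the responder (log2 ratio -0.26) and 0.517-fold in the non-responder (log2 ratio -0.95).

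**Figure D2:**
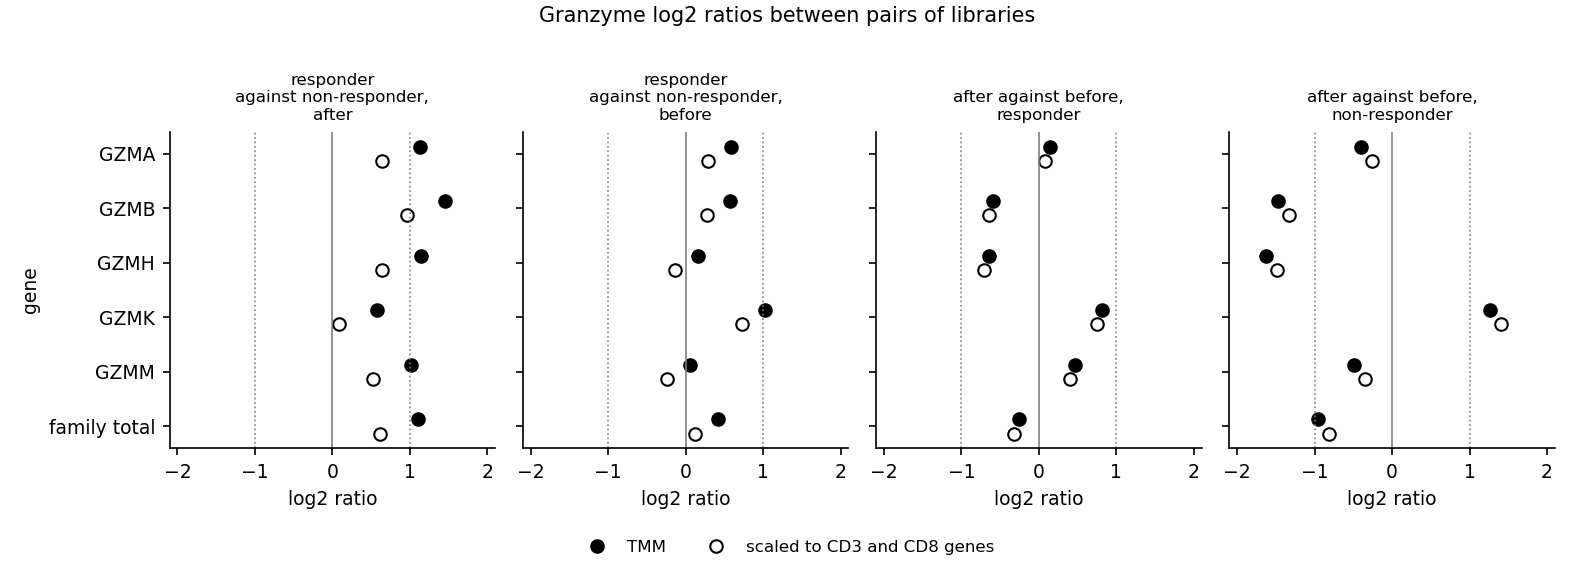
Log2 ratio of each granzyme and of the family sum in the 4 pairs of libraries, with filled points on TMM-normalised CPM, open points scaled to the summed counts of the CD3 and CD8 chains, dotted lines at 2-fold, and bars for the 95% counting intervals, mostly hidden by the points. GZMH and GZMM before therapy lay on opposite sides of 0 on the 2 scales (GZMH 0.16 and -0.13, GZMM 0.06 and -0.23), and no granzyme stayed at or above 2-fold between responder and non-responder on the second scale.

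The ratios between responder and non-responder depended on what the libraries were scaled to. The summed CD3D, CD3E, CD3G, CD8A and CD8B counts gave 3796 CPM in responder cells and 2695 CPM in non-responder cells after therapy, and 3640 CPM (3639.7) in responder cells and 2974 CPM in non-responder cells before therapy. Scaled to these T cell genes, GZMB was 1.94-fold, GZMH 1.56-fold, GZMA 1.55-fold, GZMM 1.43-fold and GZMK 1.06-fold higher in the responder after therapy. The family sum was then 1.53-fold higher after therapy and 1.09-fold higher before it. Before therapy GZMK was 1.66-fold, GZMA 1.22-fold and GZMB 1.21-fold higher in the responder on this scale, while GZMH stood at 0.913-fold and GZMM at 0.850-fold. This scaling moved the median log2 ratio over all genes to -0.45 after therapy and to -0.25 before it, and to 0.22 for time in the non-responder. After therapy 198 of 12631 genes were then at least 2-fold higher in the responder, and 0 of 5 granzymes. Among these genes 1.72% had a ratio at least as high as GZMB, beside 1.96% with TMM. For the family sum it was 4.00%, beside 4.41% with TMM. Rescaling moves all genes of a pair by the same log2 amount, so these shares change only through which genes reach 5 CPM. They are thus no check on the scaling. For each T cell gene count there were 0.861 granzyme counts in responder cells and 0.563 in non-responder cells after therapy, and 1.08 in responder cells and 0.985 in non-responder cells before therapy. The calls in time kept their side of 2-fold on this scale, with GZMB at 0.399-fold, GZMH at 0.358-fold and GZMK at 2.65-fold after against before therapy in the non-responder. Myeloid markers were highest in the library with the lowest summed T cell gene and summed granzyme levels. In that library GZMA, GZMB, GZMH, GZMM, CD3D, CD3G and CD8B were lowest, while GZMK, CD3E and CD8A were lowest in the non-responder before therapy. The part of myeloid transcripts in the ratios was not tested.

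The make-up of the family does not depend on the scaling between libraries. GZMK made up 14.4% of the granzyme counts in the responder (exact binomial interval 14.3 to 14.5) and 20.8% in the non-responder (20.6 to 21.0) after therapy. Before therapy it made up 6.82% in the responder (6.73 to 6.91) and 4.49% in the non-responder (4.395 to 4.58). The GZMK share after therapy was 2.11 times that before therapy in the responder and 4.64 times in the non-responder. After therapy the GZMK share was smaller in the responder than in the non-responder, although the GZMK level was higher in the responder. All shares here and in the next paragraph are of counts, which weigh longer genes more. Per length GZMK made up 9.97% in the responder and 14.5% in the non-responder after therapy, and 4.70% and 3.03% before it.

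GZMB and GZMH together made up 55.3% of granzyme counts in responder cells and 49.0% in non-responder cells after therapy, against 70.7% and 74.8% before therapy. Their combined share was thus smaller after therapy for both kinds of patient. The GZMH share was 28.8% in responder cells and 28.2% in non-responder cells after therapy, and 37.5% in responder cells and 44.9% in non-responder cells before therapy. The GZMB share was 26.5% in responder cells and 20.9% in non-responder cells after therapy, and 33.2% in responder cells and 29.9% in non-responder cells before therapy. GZMA ran the other way, with 27.4% in responder cells and 27.1% in non-responder cells after therapy and 20.8% in responder cells and 18.5% in non-responder cells before therapy. GZMM stayed between 1.74% and 3.08% in the 4 libraries.

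**Figure D3:**
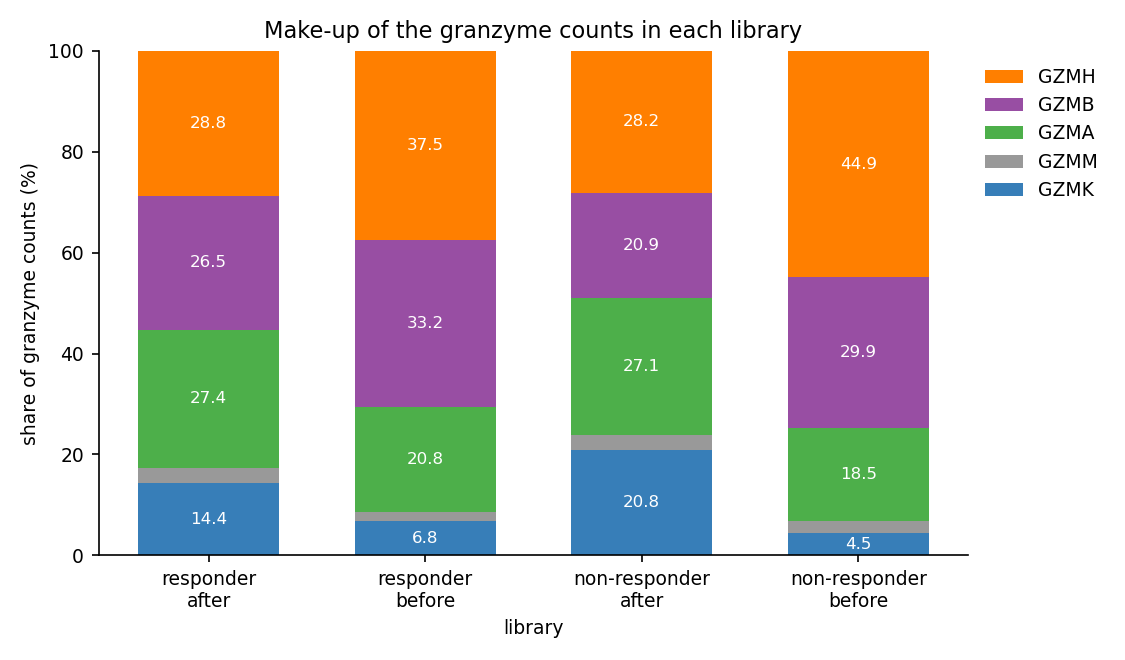
Share of each granzyme in the summed granzyme counts of each library, in percent, stacked to 100 per library, with shares above 4% printed in the bars. The GZMK segment was larger after therapy (14.4% and 20.8%) than before it (6.8% and 4.5%), and the GZMB and GZMH segments were smaller.

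Per length, there were 2.05 GZMB transcripts for each GZMK transcript in responder cells and 1.12 in non-responder cells after therapy, against 5.41 and 7.40 before therapy. GZMB and GZMH stayed closer to each other, with 0.6203 GZMB per GZMH in responder cells and 0.4997 in non-responder cells after therapy, against 0.596 and 0.448 before it. The GZMB to GZMH ratio was higher in the responder than in the non-responder at both times. The GZMB to GZMA ratio was 0.611 in responder cells and 0.489 in non-responder cells after therapy, against 1.01 and 1.02 before it.

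Across all 4 libraries a test was possible for response with time as a covariate, and for time with response as a covariate, with 1 residual degree of freedom and the interaction of both treated as error. With edgeR's quasi-likelihood test and Benjamini-Hochberg adjustment over 24113 genes, 0 genes (0%) were called at an adjusted p under 0.05 for response and 0 genes (0%) for time. Unadjusted, 2119 and 2732 genes were under 0.05. For response, GZMB was 1.01 ± 0.284 (log2 ratio ± SE, edgeR adjusted p = 0.558), GZMA 0.86 ± 0.218 (adjusted p = 0.558) and GZMK 0.80 ± 0.204 (adjusted p = 0.558). GZMH was 0.65 ± 0.303 (edgeR adjusted p = 0.605) and GZMM 0.54 ± 0.314 (adjusted p = 0.655), so no granzyme passed. For time, GZMK was 1.04 ± 0.205 (adjusted p = 0.409), GZMH -1.13 ± 0.306 (adjusted p = 0.412) and GZMB -1.03 ± 0.284 (adjusted p = 0.412) in edgeR, after over before therapy. GZMA was -0.13 ± 0.217 (edgeR adjusted p = 0.854) and GZMM -0.01 ± 0.313 (adjusted p = 0.994). A p that misses the threshold with so few libraries does not show that the levels are alike.

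DESeq2 on the same design called 2 of 5 granzymes higher in the responder, where it called 2.24% of 18970 genes higher. These were GZMB (log2 ratio 1.00, DESeq2 adjusted p = 0.031) and GZMA (0.84, adjusted p = 0.0397), while GZMK missed the threshold at an adjusted p of 0.0513. For time DESeq2 called 1 of 5 higher after therapy, GZMK (1.05, adjusted p = 0.0022), where 5.26% of 20373 genes were called higher. It called 2 of 5 lower, GZMH (-1.13, DESeq2 adjusted p = 0.00976) and GZMB (-1.02, adjusted p = 0.018), where 2.15% were called lower. The limma-voom fit called 0 genes for response and 2 genes for time, none of them a granzyme.

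GZMB and GZMH had the most alike patterns within the family. Likeness was measured as the root mean square difference of log2 levels over the 4 libraries, each gene centred on its own mean, among genes with at least 20 CPM on average. GZMB and GZMH differed by 0.19, and GZMH ranked 6 among 7662 genes by closeness to GZMB, while GZMB ranked 11 by closeness to GZMH. GZMA and GZMM differed by 0.20, with GZMM at rank 172 from GZMA and GZMA at rank 208 from GZMM, whereas GZMK differed from GZMA, GZMM, GZMB and GZMH by 0.64, 0.65, 1.09 and 1.15. The gene outside the family nearest to GZMH was NKG7, a granule membrane protein of killer cells, which differed by 0.08 and stood at 992 CPM in responder cells and 514 CPM in non-responder cells after therapy, and at 1635 CPM in responder cells and 1361 CPM in non-responder cells before therapy. MIR3615 and LRRC8A followed. Among the genes nearest to GZMK were TGFBR2, a receptor for TGF-beta, with a difference of 0.02, and CTD-2313F11.1, with 0.04. Nearest to GZMB were PAFAH2, CCDC167 and WDR54, at 0.08 to 0.14, and nearest to GZMM were SAMD9, SLFN13 and NPC1, at 0.03 to 0.04. Among the genes nearest to GZMA were GPR171, at 0.04, and ZC3HC1, at 0.05. With 4 libraries and 7662 genes, close patterns also arise between unrelated genes.

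The partners that granzymes need were compared as lists. Beside the shares of all genes at least 2-fold higher given above, 8.86% of genes were at least 2-fold lower in the responder after therapy and 8.93% before therapy. DESeq2 called 2.52% of genes lower in the responder, beside the 2.24% called higher. With lists of about 10 genes, counts of 0 or 1 are near these shares. Of 10 granule partner genes, 1 stood 2-fold or more higher in the responder after therapy (median log2 ratio of the list -0.07, beside 0.07 over all genes), and 1 was higher and 1 lower before therapy (median -0.20, beside 0.06). PRF1, the perforin that lets granzymes into the target cell, was the higher one at both times, with 1488 CPM in responder cells and 465 CPM in non-responder cells after therapy, and 1613 CPM in responder cells and 685 CPM in non-responder cells before therapy. That is 3.20-fold (log2 ratio 1.68) and 2.36-fold (log2 ratio 1.24), larger ratios than those of the granzymes at the same times. SRGN, the proteoglycan serglycin on which granzymes are packed, ran the other way, with 434 CPM in responder cells and 638 CPM in non-responder cells after therapy, and 262 CPM in responder cells and 425 CPM in non-responder cells before therapy. SRGN is also abundant in myeloid cells, and what part their RNA has in its level was not tested. RAB27A, a GTPase that docks lytic granules at the membrane, had log2 ratios of 0.84 after and 0.67 before therapy. LAMP1, the lysosomal membrane protein that appears on the surface upon degranulation, had -0.48 and -1.20. By DESeq2 1 of the 10 was higher and 0 lower in the responder, and 2 were higher and 3 lower after therapy, while edgeR called 0 for response and 0 for time. Over all genes DESeq2 called 5.26% higher and 2.15% lower after therapy.

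Granzymes are made as inactive precursors, which cathepsin C trims in the granule after mannose 6-phosphate receptors have sorted them there. Of the 8 genes of activation and sorting, 0 were at least 2-fold higher and 1 lower in the responder after therapy (median log2 ratio 0.71), where 5.79% of all genes were higher and 8.86% lower. Before therapy 2 were higher and 0 lower (median 0.26), where 11.5% were higher and 8.93% lower. CTSC, the gene of cathepsin C, had 393 CPM in responder cells and 237 CPM in non-responder cells after therapy, and 462 CPM in responder cells and 196 CPM in non-responder cells before therapy. M6PR, a receptor for mannose 6-phosphate, had 387 CPM in responder cells and 241 CPM in non-responder cells after therapy, and 394 CPM in responder cells and 176 CPM in non-responder cells before therapy. Both were thus above 2-fold before therapy, with log2 ratios of 1.24 and 1.16, and below it after therapy, with 0.73 and 0.68. CTSH, cathepsin H, which can also process granzyme B, was the lower one after therapy (log2 ratio -1.86), and it is also a gene of monocytes. By DESeq2 2 of the 8 were higher and 1 lower in the responder, and 1 was higher after therapy, beside 2.24%, 2.52% and 5.26% of all genes, and edgeR called 0.

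The inhibitors with counts stayed below 2-fold in each pair. SERPINB9, the cytosolic serpin that protects killer cells from their own granzyme B, had 93.8 CPM in responder cells and 78.4 CPM in non-responder cells after therapy, and 91.3 CPM in responder cells and 111 CPM in non-responder cells before therapy. SERPINB1, a serpin of leukocyte proteases that can block granzyme H, had 154 CPM in responder cells and 181 CPM in non-responder cells after therapy, and 127 CPM in responder cells and 125 CPM in non-responder cells before therapy. SERPINB6, another intracellular serpin, had log2 ratios of -0.26 after and 0.20 before therapy. None of these 3 was 2-fold apart in any pair. Over all genes 1822 of 12434 were 2-fold apart between responder and non-responder after therapy, and 2521 of 12361 before it. With 3 genes a count of 0 is near these shares. Neither edgeR nor DESeq2 called any of the list. SERPINB4, the last of the 4 genes listed, had no count in any library, which allows up to 0.0235 to 0.046 CPM for counting error alone.

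The substrates are listed although granzymes cut them in the target cell, not in the cell that makes them. Of the 8 genes for granzyme B substrates with at least 5 CPM, 0 were 2-fold apart between responder and non-responder at either time. Their medians were 0.46 after and 0.19 before therapy. Over all genes 1822 of 12434 were 2-fold apart after therapy and 2521 of 12361 before it. With 8 genes a count of 0 is not far from these shares. DFFA, the inhibitor of the apoptotic DNase, had log2 ratios of 0.96 after and 0.66 before therapy, PARP1, a DNA repair enzyme, 0.89 and 0.67, and MCL1, a survival protein of the BCL2 family, -0.67 and -0.55. Of the 6 genes for granzyme A substrates, 0 were 2-fold apart after therapy (median -0.23) and 1 was at least 2-fold lower in the responder before therapy (median -0.12), where 8.93% of all genes were. That gene was HMGB2, a chromatin protein, at -0.33 after and -1.28 before therapy, and SET, the protein that names the complex cut by granzyme A, stood at -0.27 after and -0.42 before therapy. NDUFS3, a subunit of mitochondrial complex I, stood at -0.20 after and -0.49 before therapy. DESeq2 called 1 gene of both substrate lists, higher after therapy, where it called 5.26% of all genes higher, and edgeR called 0.

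**Figure D4:**
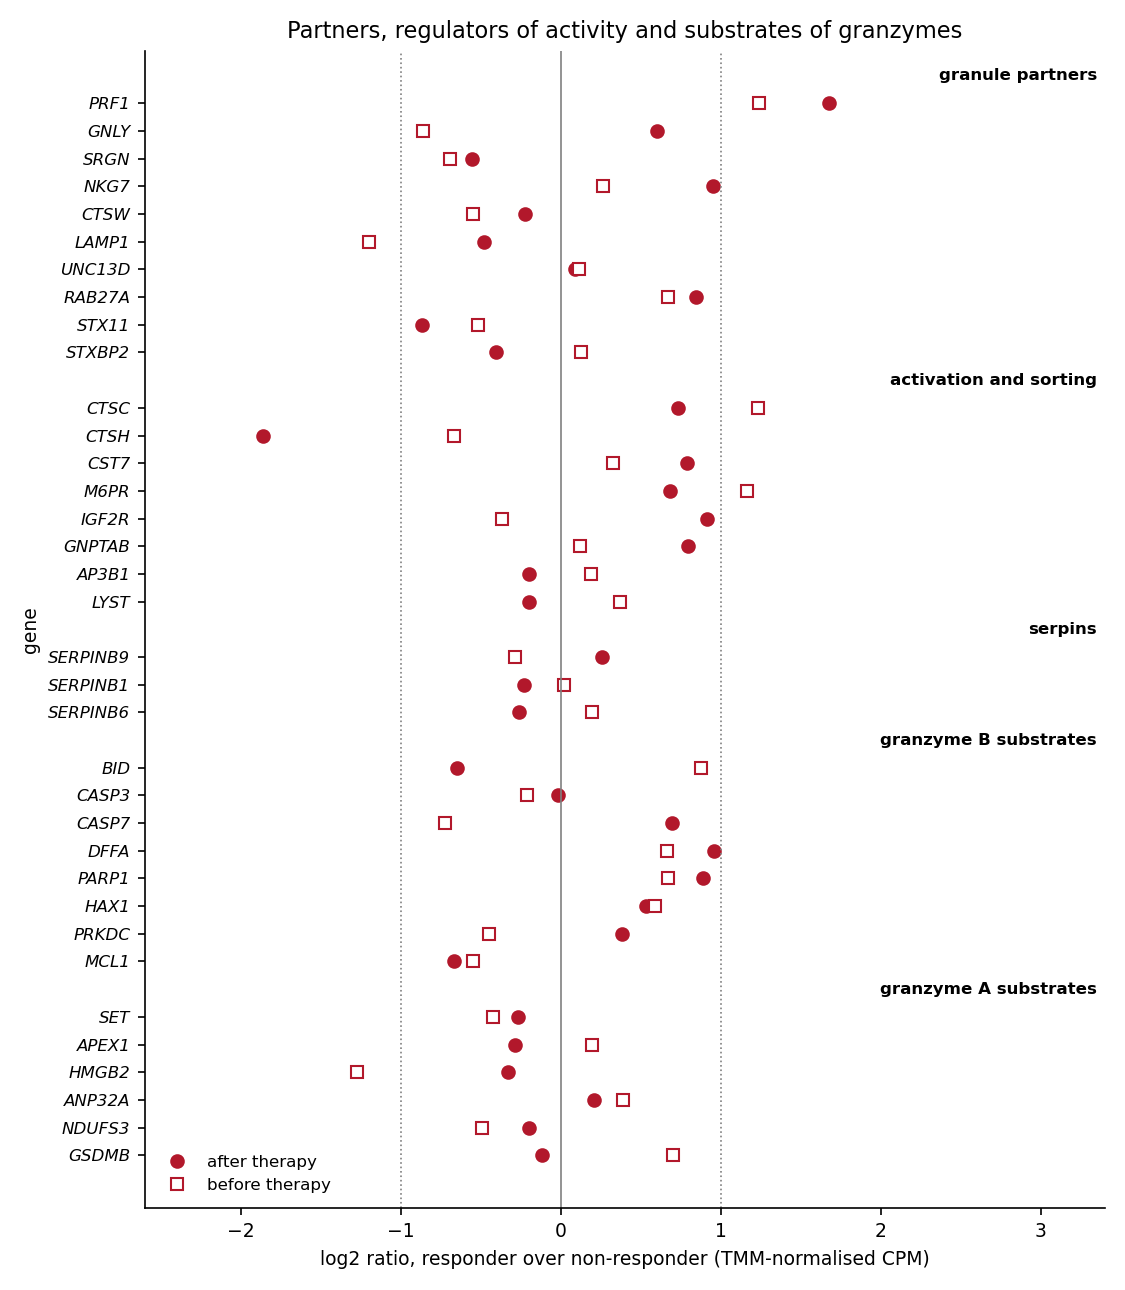
Log2 ratio of responder over non-responder, on TMM-normalised CPM, for the partner, activation, serpin and substrate genes with at least 5 CPM in a library, after therapy (filled circles) and before therapy (open squares), with dotted lines at 2-fold. PRF1 lies beyond 2-fold at both times (1.68 and 1.24), CTSC and M6PR before therapy only, and the serpins lie near 0.

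Of 12 transcription factor genes tied to effector and memory fate in CD8+ T cells, 0 were 2-fold apart after therapy between responder and non-responder. Their median log2 ratio was 0.04, and 5.79% of all genes were at least 2-fold higher and 8.86% lower. Before therapy 2 stood 2-fold or more higher in the responder (median -0.26), where 11.5% of all genes did. These were EOMES, a T-box factor of memory CD8+ T cells, and BATF, an AP-1 factor. EOMES had 356 CPM in responder cells and 220 CPM (220.3) in non-responder cells after therapy, and 208 CPM in responder cells and 95.2 CPM in non-responder cells before therapy, the same order of libraries as GZMK. BATF had 29.6 CPM in responder cells and 17.4 CPM in non-responder cells after therapy, and 55.5 CPM in responder cells and 25.6 CPM in non-responder cells before therapy. BACH2, a repressor that keeps T cells from effector fate, had log2 ratios of -0.71 after and -0.66 before therapy. By DESeq2 1 of the 12 was higher in the responder, 1 higher and 1 lower after therapy, beside 2.24%, 5.26% and 2.15% of all genes, and edgeR called 0.

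Genes of early memory and of late effector cells, the settings in which GZMK and GZMB are best known, were counted too. Both lists overlap with those above. EOMES, TCF7 and LEF1 of the early memory list, and TBX21 and ZEB2 of the late effector list, were also counted as transcription factors. PRF1 and GNLY of the late effector list were also counted as granule partners. Of 12 late effector genes, 4 were at least 2-fold lower and 1 higher after against before therapy in the non-responder (median log2 ratio -0.73, beside 0.07 over all genes), where 8.25% of all genes were lower and 15.6% higher. In the responder 2 were lower and 0 higher (median -0.25, beside 0.07), where 4.7% were lower and 8.5% higher. Between responder and non-responder, 5 of 11 with at least 5 CPM stood 2-fold or more higher in the responder after therapy (median 0.93) and 4 of 12 before therapy (median 0.32), beside 5.79% and 11.5% of all genes. Besides PRF1, CX3CR1, the fractalkine receptor, had log2 ratios of 1.22 after and 3.12 before therapy, and PRSS23, a serine protease, 1.29 and 1.15. Of 10 early memory genes, 3 were at least 2-fold higher and 1 lower after therapy in the non-responder (median 0.30), and 0 were higher and 2 lower in the responder (median 0.12), beside the same shares of all genes. Between responder and non-responder, 0 of these 10 were 2-fold apart after therapy (median 0.10), while before therapy 3 stood at least 2-fold above the non-responder and 9 of 10 were higher (median 0.64). Before therapy the median of the early memory genes was thus above that of the late effector genes, and after therapy below it. The difference between the lists was not tested. IL7R, the interleukin-7 receptor chain, had 469 CPM in responder cells and 326 CPM (325.5) in non-responder cells after therapy, and 286 CPM in responder cells and 145 CPM in non-responder cells before therapy. CD27, a costimulatory receptor, had log2 ratios of 0.60 after and 1.26 before therapy between responder and non-responder. DESeq2 called 5 late effector genes higher in the responder and 5 lower after therapy, and 2 early memory genes higher in the responder and 3 higher and 1 lower after therapy. Over all genes it called 2.24% higher in the responder, and 5.26% higher and 2.15% lower after therapy, and edgeR called 0 of either list.

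Other cells can also carry granzyme transcripts, among them NK cells, gamma delta T cells, MAIT cells and, for GZMB, plasmacytoid dendritic cells. The 10 NK markers summed to 1261 CPM in responder cells and 1223 CPM in non-responder cells after therapy, and to 1119 CPM in responder cells and 816 CPM in non-responder cells before therapy, with none at 0. Effector CD8+ T cells express several of these genes too, and TYROBP and FCER1G are also myeloid. TYROBP and FCER1G had 273 and 276 CPM in the non-responder after therapy and at most 74.9 and 51.0 CPM in any other library. The other 8 markers summed to 1149 CPM in responder cells and 674 CPM in non-responder cells after therapy, and to 1003 CPM in responder cells and 723 CPM in non-responder cells before therapy. That sum leaves out TYROBP and FCER1G and was formed with the values known. After therapy 7 of the 10 were higher in the responder (median log2 ratio 0.65, beside 0.07 over all genes), among them KLRF1 at 2.02-fold, FCGR3A at 1.97-fold, NCR1 at 1.78-fold, NCR3 at 1.66-fold and KLRD1 at 1.56-fold. The other 3 were lower, TYROBP (log2 ratio -2.16), FCER1G (-2.44) and KLRC1 (-0.05). Before therapy 9 of 10 were higher (median 0.34, beside 0.06). More of these markers were thus higher than lower in the responder at both times. NCAM1, the CD56 gene that defines NK cells, lay between 4.26 and 10.1 CPM. The 5 gamma delta markers summed to 558 CPM in responder cells and 489 CPM in non-responder cells after therapy, and to 587 CPM in responder cells and 564 CPM in non-responder cells before therapy. TRDC, the delta chain constant gene, had 93.9 CPM in responder cells and 25.0 CPM in non-responder cells after therapy, and 60.6 CPM in responder cells and 83.2 CPM in non-responder cells before therapy. TRGV9, a gamma chain variable gene, had 36.4 CPM in responder cells and 75.2 CPM in non-responder cells after therapy, and 48.9 CPM in responder cells and 70.1 CPM in non-responder cells before therapy. The list had no common direction, since the non-responder library after therapy was lowest in TRDC and TRGC2 and highest in TRGC1, TRGV9 and TRDV2. The part of such cells in the granzyme levels was not tested.

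The 7 MAIT markers summed to between 138 and 245 CPM, highest in the responder before therapy. Of the 7, 4 were at least 2-fold lower in the responder after therapy (median log2 ratio -1.07, beside 0.07 over all genes), where 8.86% of all genes were. Before therapy 4 were at least 2-fold higher (median 2.56, beside 0.06), where 11.5% of all genes were. The 8 dendritic cell genes include GZMB itself. LILRA4 and CLEC4C, which define plasmacytoid dendritic cells, were at most 5.41 and 0.98 CPM, both in the non-responder after therapy. The part of such cells in the GZMB level was not tested. CLEC4C had no count in the responder after and the non-responder before therapy. Platelet markers, 6 genes, summed to 15.8 CPM in responder cells and 166 CPM in non-responder cells after therapy, and to 26.5 CPM in responder cells and 63.4 CPM in non-responder cells before therapy. The 7 B and plasma cell markers summed to between 61.5 and 90.9 CPM, and the 5 CD4 and regulatory T cell markers to between 41.6 CPM in the non-responder before it and 130 CPM (130.3) in the non-responder after therapy. CD4 itself, which monocytes also express, had 94.7 CPM there and at most 11.5 CPM elsewhere.

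Of 10 genes near the granzymes or of related proteases, 2 reached 5 CPM in a library, where 13233 of all 59490 genes did. They were BSG, a membrane protein near GZMM, at 202 to 294 CPM, and CFD, the complement factor D gene of myeloid cells. CFD had 11.9 CPM in responder cells and 46.7 CPM in non-responder cells after therapy. Before therapy it had 2.81 CPM in responder cells and 5.61 CPM in non-responder cells. CTSG, the cathepsin G gene of the same chromosome 14 cluster as GZMB and GZMH, stayed between 1.30 and 4.66 CPM.

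**Figure D5:**
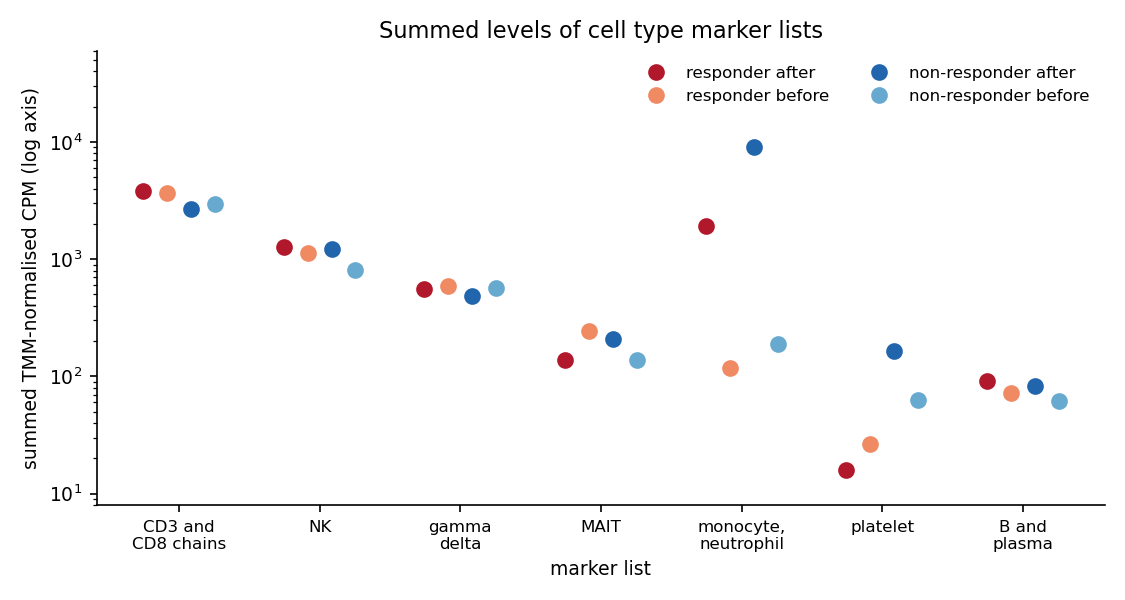
Summed TMM-normalised CPM of cell type marker lists on a log axis, 1 point per library. The monocyte and neutrophil list ranged from 119 CPM in the responder before therapy to 9083 CPM in the non-responder after therapy, whereas the CD3 and CD8 chains lay between 2695 and 3796 CPM.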

How the data were processed

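Total RNA, 1 ng in all, was turned into cDNA by a SMARTer low-input kit, and libraries were read as paired reads of 101 bases, per the labels' protocols. The submitters' processing notes name bcl2fastq 1.8.4, TopHat2 and hg38. The values are raw counts per gene as deposited by the authors, 1 table per sample, and for the counting tool, its strand setting and its handling of reads that match several genes, the answer is not given in the sources used here. Of 64253 genes, 4146 on other contigs and 617 on chromosome Y or at the XIST locus were left out of the tests. Library totals, and with them CPM, were taken over all 64253 genes.

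The counts were tested with edgeR 4.0.16 (TMM, quasi-likelihood, additive in response and time, common biological coefficient of variation 0.66) over the 24113 genes left by its filter on low counts. DESeq2 1.42.0, limma 3.58.1 (voom) and other scalings and filters were alternatives. With 1 residual degree of freedom, a p-value here reflects how these particular libraries scatter, which may be technical. Pair ratios had 0.5 added to each count, with intervals from an exact binomial test conditional on the summed counts, and were read against all genes reaching 5 CPM in the pair. A count of 0 allows up to 3 counts. Lengths are those of the files, of which 33.8% are multiples of 3, so they include non-coding exon sequence. On simulated counts with the coefficient of variation of 0.66, for response among 24793 genes, edgeR recovered 0% of the genes changed 4-fold, 27.7% of those changed 16-fold and 75.5% of those changed 64-fold. With a coefficient of 0.1 it recovered 95.2% of the genes changed 4-fold. Every simulated gene had the same coefficient, so recovery at the scatter of the granzymes themselves was not simulated.

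The members and the 18 lists (139 genes, all found) were chosen with earlier results of these data known. The 3 genes of each list with the largest mean ratio between responder and non-responder are named, for cell type markers only where a result touches them, beside PRF1, SRGN, CTSC, SERPINB9 and SERPINB1. Of the 3 most alike genes of each granzyme, those not named are not reported here. NCAM1, TYROBP, KLRF1, FCGR3A, NCR1, NCR3, KLRD1, TRGC1, TRDV2, LILRA4, CLEC4C and CTSG do not come from this rule and were added with their values known. CCR6 has 2 entries in the files, and the older was used. SE is the absolute log2 ratio over the square root of F.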

Additional observations from a re-analysis of the deposited data

Results flagged for a closer look

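GZMA and GZMM stood on opposite sides of 0 in time for the responder and the non-responder. The log2 ratio of after over before therapy for GZMA was 0.14 in the responder and -0.40 in the non-responder. For GZMM it was 0.46 in the responder and -0.49 in the non-responder. With 1 library a group the difference between responder and non-responder was not tested. The signs were the same on library size, on DESeq2 size factors and on scaling to the CD3 and CD8 genes.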

How the results depend on the processing

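No paired analysis was possible because each group holds 1 library, and leaving out a library leaves no residual degree of freedom. DESeq2 called 903 genes for response and 1509 for time, where edgeR called 0. For time, limma-voom called 2 genes, edgeR on every gene with a count 2, and edgeR on genes with at least 5 CPM 3. The log2 ratio of the family sum kept its sign under every alternative run. After therapy, responder over non-responder, it was 1.13 on library size, 0.61 scaled to the CD3 and CD8 genes, 1.12 per kilobase, 1.002 without GZMB and 1.22 without GZMK. Before therapy it was 0.502 on library size, 0.403 on DESeq2 size factors, 0.13 on CD3 and CD8 genes, 0.39 per kilobase, 0.35 without GZMB and 0.38 without GZMK. After over before therapy in the responder it was -0.37 on library size, -0.23 on DESeq2 size factors, -0.32 on CD3 and CD8 genes, -0.12 without GZMB and -0.38 without GZMK. In the non-responder it was -0.99 on library size, -0.94 on DESeq2 size factors, -0.81 on CD3 and CD8 genes, -0.999 per kilobase, -0.78 without GZMB and -1.22 without GZMK. Of 24 ratios of members and sums, scaling to CD3 and CD8 genes turned the sign of 2 and moved 6 across 2-fold, and library size and DESeq2 size factors did neither to any. The fitted ratio of GZMM in time, near 0 in edgeR, was 0.045 in limma-voom, 0.0065 on DESeq2 size factors and 0.028 on CD3 and CD8 genes, opposite in sign to -0.01, and the cause was not tested. Genes 2-fold apart depended on the level required. At 1 CPM and at 20 CPM there were 3769 and 874 after therapy and 5250 and 1260 before therapy for responder over non-responder, and 3591 and 798 in the responder and 5943 and 1488 in the non-responder for time, because more or fewer genes enter. Depth limits the granzymes little, as the least abundant had 4279 counts.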

Other observations

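GNLY, the pore-forming granulysin of the same granules, had 2003 CPM in responder cells and 1321 CPM in non-responder cells after therapy, and 2595 CPM in responder cells and 4725 CPM in non-responder cells before therapy. Its log2 ratio of responder over non-responder was thus 0.60 after therapy and -0.86 before therapy, with opposite signs. CTSW, cathepsin W of cytotoxic cells, was lower in the responder at both times, with log2 ratios of -0.23 after and -0.55 before therapy. KLRG1, a receptor of late effector cells, had log2 ratios of 1.52 after and 0.73 before therapy. These genes were picked after their values were seen, and their differences have no replicate check.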
